A study of Mus musculus with 10 samples.

Results

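The p53 pathway was followed through 10 genes in sorted mouse erythroid progenitors: Trp53 itself, its inhibitors Mdm2 and Mdm4, and the arrest and feedback targets Cdkn1a, Ccng1, Btg2, Gadd45a, Plk2, Zmat3 and Phlda3. They were taken by gene symbol as textbook members of the pathway, with earlier results of these data known, and they are 10 of the 24421 genes counted. All 10 passed the filter on low counts, which kept 11846 genes for testing. Zmat3 and Phlda3 passed it on few reads: Zmat3 exceeded the filter's level in 6 of 10 libraries and Phlda3 in 3, and for both of them none of the 3 Ddx41+/+ Trp53+/- libraries did so.

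The cells were R2 cells, erythroid progenitors positive for CD71 (the transferrin receptor) and for Ter119 (an antigen of the red cell lineage), sorted from the bone marrow of transplanted mice. Donor marrow carried Rosa26-CreERT2, a ubiquitously expressed Cre recombinase that tamoxifen activates, and either a floxed Ddx41 allele beside a wild-type one or no floxed allele. Ddx41 encodes a DEAD-box RNA helicase. Each BoyJ recipient received 1000000 marrow mononuclear cells, and every group was given 1 mg of tamoxifen on each of 5 days in 2 rounds. The marrow was collected 8 weeks after the transplant, and 100000 sorted cells per mouse are named in the labels. The 4 genotypes were Ddx41+/+ Trp53+/+ (mice 10, 11 and 12), Ddx41+/- Trp53+/+ (mice 32 and 34), Ddx41+/+ Trp53+/- (mice 22, 23 and 24) and Ddx41+/- Trp53+/- (mice 46 and 47). In the Trp53+/- groups the Trp53 knockout allele was inherited through the germline, so every donor cell of these groups had 1 functional copy, whereas Ddx41 was deleted only where Cre acted. The sort named in the labels used no donor marker, so cells of the host could remain in the sorted fraction. Each library came from 1 mouse, and ages were not given in the labels.

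In unstressed cells p53 protein is held low by MDM2, a ubiquitin ligase that marks it for degradation, and by MDM4, which blocks its activity. Stress frees p53 to activate genes that stop the cell cycle, above all Cdkn1a, and genes such as Mdm2 and Ccng1 that feed back on p53. Erythroid progenitors are known to be sensitive to p53, which is activated in them when ribosome production is disturbed.

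Trp53 lies on chromosome 11 (chr11:69580359-69591873, plus strand; GENCODE M21, GRCm38), 28.8 Mb from Ccng1 (chr11:40748552-40755311, minus strand). Cdkn1a lies at chr17:29090976-29100727 on the plus strand and Mdm2 at chr10:117688875-117710758 on the minus strand. Gadd45a lies at chr6:67035096-67037457 (minus), Plk2 at chr13:110395046-110400844 (plus) and Zmat3 at chr3:32334792-32366014 (minus). Mdm4 (chr1:132959484-133030561, minus), Btg2 (chr1:134075170-134079120, minus) and Phlda3 (chr1:135766119-135769136, plus) are neighbours within 2.74 Mb of chromosome 1.

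The promoters below are printed because p53 acts through DNA motifs, and 5 of the 11 promoter windows of the members (45.5%, 1 window in each of 5 of the 9 members with a window) held the p53 half-site motif (a perfect match to its 10-base consensus, which reads the same on both strands). Windows ran from 250 bases before to 50 bases after a start site in RefSeq on GRCm38.p6, and 8.36% of all 32851 such windows (2745) held the motif. Each line gives 100 bases 5′ to 3′ on the gene's own strand with the half-site in capitals: Trp53 at chr11:69580239-69580338, Cdkn1a at chr17:29090872-29090971, Ccng1 at chr11:40755417-40755516, Mdm2 at chr10:117710890-117710989 and Gadd45a at chr6:67037408-67037507.
Trp53: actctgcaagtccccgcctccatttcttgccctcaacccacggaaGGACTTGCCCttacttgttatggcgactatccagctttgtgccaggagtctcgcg
Cdkn1a: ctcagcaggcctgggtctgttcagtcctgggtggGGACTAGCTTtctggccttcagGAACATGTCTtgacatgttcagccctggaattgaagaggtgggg
Ccng1: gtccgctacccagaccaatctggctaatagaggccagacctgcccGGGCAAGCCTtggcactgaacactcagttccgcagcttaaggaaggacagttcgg
Mdm2: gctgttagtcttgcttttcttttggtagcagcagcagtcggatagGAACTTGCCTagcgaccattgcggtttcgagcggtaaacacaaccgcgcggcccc
Gadd45a: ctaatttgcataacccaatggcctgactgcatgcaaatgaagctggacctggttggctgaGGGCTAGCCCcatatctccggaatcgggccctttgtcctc
The first base of the half-site stood 75 bases before the start in Trp53, 73 and 51 bases before the upstream start in Cdkn1a, 185 in Ccng1, 186 in Mdm2 and 40 in Gadd45a. The second start site of Cdkn1a, both of Mdm4 and those of Btg2, Plk2 and Phlda3 had no match in their windows. A match describes letters and not occupancy, which was not measured, and p53 sites are often found outside such windows.

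Levels are given in CPM, the reads on a gene per 1000000 counts of its library after scaling by the TMM method. The libraries held 7866648 (mouse 34) to 20283930 (mouse 11) counts. To compare genes, the CPM was also divided by the length of all exons of the gene in kilobases. In the Ddx41+/+ Trp53+/+ cells (mean ± SD, n = 3), Btg2 had the highest level at 205 ± 7.46 CPM per kb, followed by Gadd45a at 162 ± 13.8. Btg2 encodes an antiproliferative adaptor of mRNA deadenylation and Gadd45a a stress-induced regulator of cell cycle arrest. Mdm2 followed at 17.3 ± 1.11 CPM per kb, Trp53 at 14.3 ± 0.212, Ccng1 at 7.53 ± 0.555 and Mdm4 at 5.09 ± 0.333. Cdkn1a stood at 1.98 ± 0.155 CPM per kb and Plk2 at 1.41 ± 0.530. Phlda3 at 0.307 ± 0.195 and Zmat3 at 0.127 ± 0.0531 CPM per kb were lowest. Among neighbours in this order, the ranges of the 3 mice overlapped for Cdkn1a and Plk2 and for Phlda3 and Zmat3, and did not overlap for any other pair. The order depends on the length used. With the longest transcript in place of all exons, a choice made after seeing the data, Gadd45a (234 CPM per kb) stood above Btg2 (205) and Mdm4 (10.6) above Ccng1 (7.53).

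**Figure D1:**
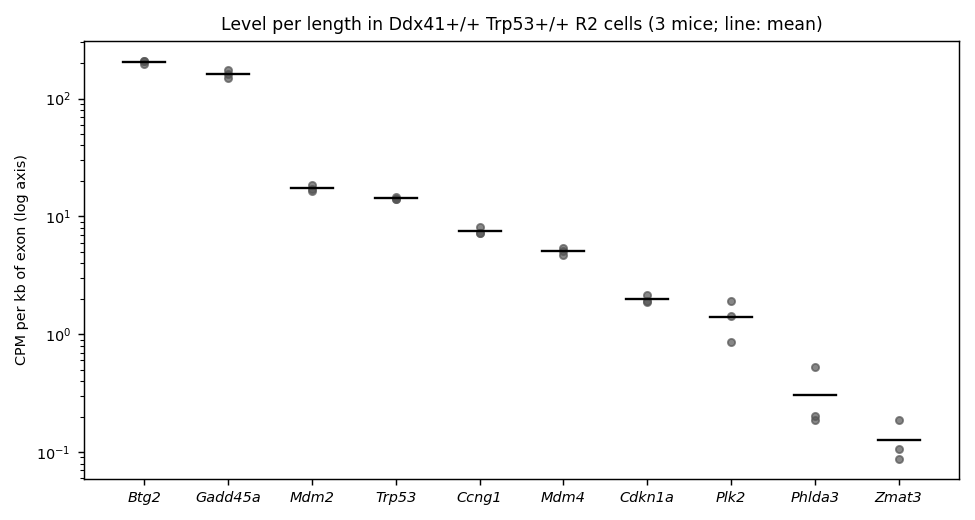
Level of each gene per length in the 3 Ddx41+/+ Trp53+/+ mice, as CPM per kb of exon on a log axis, with 1 point per mouse and a line at the mean. By this length Btg2 (205 CPM per kb) and Gadd45a (162) stand far above the rest, in an order that turns with the longest transcript as the length, and Phlda3 (0.307) and Zmat3 (0.127) are lowest.

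The deleted genes were read first as a check of the labels. Ddx41 was at 25.1, 21.9 and 22.6 CPM in the Ddx41+/+ Trp53+/+ mice and at 13.8 and 16.5 CPM in the Ddx41+/- Trp53+/+ mice. It was at 26.6, 22.9 and 23.2 CPM in the Ddx41+/+ Trp53+/- mice and at 12.5 and 15.6 CPM in the Ddx41+/- Trp53+/- mice. All 4 Ddx41+/- libraries lay below all 6 Ddx41+/+ libraries. The log2 fold change was -0.63 with Trp53+/+ (SE 0.156, adjusted p = 0.0887) and -0.78 with Trp53+/- (SE 0.153, adjusted p = 0.177), so neither difference passed the edgeR quasi-likelihood test, in which a gene was called at a Benjamini-Hochberg adjusted p under 0.05 over the 11846 genes. An antisense gene overlaps 17.4% of the exon bases of Ddx41, and whether reads were counted by strand was not given in the sources used here.

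Trp53 mRNA fell in the Trp53+/- cells over both Ddx41 genotypes. It was at 57.4, 57.4 and 58.9 CPM in the Ddx41+/+ Trp53+/+ mice and at 59.2 and 68.1 CPM in the Ddx41+/- Trp53+/+ mice. It was at 43.1, 41.8 and 44.5 CPM in the Ddx41+/+ Trp53+/- mice and at 40.3 and 46.2 CPM in the Ddx41+/- Trp53+/- mice. The 5 Trp53+/- libraries lay below the 5 Trp53+/+ libraries without overlap. Over both Ddx41 genotypes the log2 fold change was -0.48 (SE 0.069, adjusted p = 0.00355, edgeR quasi-likelihood test with Ddx41 genotype as a term), or 28.1% below the Trp53+/+ level. It was -0.42 (SE 0.0907, adjusted p = 0.0327) with Ddx41+/+ and -0.55 (SE 0.112, adjusted p = 0.063) with Ddx41+/-, the second of which did not pass. The call with Ddx41+/+ was lost without any one of the 6 mice compared (adjusted p 0.0625 to 0.12), while the call over both Ddx41 genotypes held without any one mouse. The counts are per gene, so they do not show from which allele the remaining Trp53 mRNA came, and reads of any transcript from the knockout allele would be counted with the rest.

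Loss of 1 Ddx41 allele gave no called difference in Trp53 mRNA. The log2 fold change was 0.13 (SE 0.101, adjusted p = 0.743) with Trp53+/+, where both Ddx41+/- mice were above the 3 Ddx41+/+ mice, and 0.00 (SE 0.102, adjusted p = 1) with Trp53+/-, where the genotypes overlapped. The value with Trp53+/+ was 0.0353 without mouse 34 and 0.23 without mouse 32.

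Neither inhibitor of p53 was called in any comparison, and their genotype means stayed within 96.5% to 111% of the Ddx41+/+ Trp53+/+ mean. Mdm2, a ubiquitin ligase and itself a p53 target, was at 82.8, 87.7 and 94.0 CPM in Ddx41+/+ Trp53+/+ mice and at 91.6 and 83.7 CPM in Ddx41+/- Trp53+/+ mice. It was at 90.2, 82.9 and 83.9 CPM in Ddx41+/+ Trp53+/- mice and at 91.3 and 92.9 CPM in Ddx41+/- Trp53+/- mice. The genotypes overlapped except that both Ddx41+/- Trp53+/- mice were above the 3 Ddx41+/+ Trp53+/- mice (log2 fold change 0.11, SE 0.0872, adjusted p = 1). The Trp53 effect on Mdm2 over both Ddx41 genotypes was 0.00 on the log2 scale (SE 0.0597, adjusted p = 0.995).

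Mdm4, the paralog that inhibits p53 without degrading it, was at 70.2, 75.7 and 80.0 CPM in Ddx41+/+ Trp53+/+ mice and at 79.9 and 65.4 CPM in Ddx41+/- Trp53+/+ mice. It was at 70.5, 90.5 and 70.4 CPM in Ddx41+/+ Trp53+/- mice and at 83.6 and 83.4 CPM in Ddx41+/- Trp53+/- mice. The Ddx41+/- Trp53+/- mice were above the mice of both Trp53+/+ genotypes, and the other genotypes overlapped. Among Ddx41+/- mice the difference between the Trp53 genotypes did not pass the test (log2 fold change 0.19, SE 0.130, adjusted p = 0.953). This fold change was 0.064 without mouse 34 and 0.36 without mouse 32. Of the 75-base stretches of Mdm4, 8.01% also occur in the pseudogene Mdm4-ps, so part of its reads cannot be placed with certainty.

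Cdkn1a, which encodes the cyclin-dependent kinase inhibitor p21, was the only member called between the Ddx41 genotypes, and only with Trp53+/+. It was at 6.75, 6.71 and 7.68 CPM in Ddx41+/+ Trp53+/+ mice and at 16.6 and 15.6 CPM in Ddx41+/- Trp53+/+ mice. It was at 4.40, 6.55 and 3.84 CPM in Ddx41+/+ Trp53+/- mice and at 5.87 and 4.99 CPM in Ddx41+/- Trp53+/- mice. The 2 Ddx41+/- Trp53+/+ mice stood above all others, and every Trp53+/- mouse lay below every Trp53+/+ mouse. The Ddx41+/- Trp53+/+ mean was 229% of the Ddx41+/+ Trp53+/+ mean, against 70.0% in Ddx41+/+ Trp53+/- and 77.1% in Ddx41+/- Trp53+/- cells.

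With Trp53+/+, Cdkn1a rose in the Ddx41+/- cells by 1.20 on the log2 scale (SE 0.219, adjusted p = 0.0153, edgeR quasi-likelihood test). It was the only member called in that comparison, in which 0.625% of the tested genes were called (0.405% higher and 0.219% lower). With Trp53+/- the same Ddx41 comparison gave 0.13 (SE 0.237, adjusted p = 1), and the genotypes overlapped. The difference between these Ddx41 effects, tested as an interaction, was -1.07 (SE 0.325, adjusted p = 0.672) and did not pass, so the effects were not shown to differ after adjustment. In the interaction 0.0675% of genes were called and no member was. Cdkn1a was the 1 member at an unadjusted p under 0.05 there (0.00471, edgeR), as were 593 of the 11846 tested genes.

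Among Ddx41+/- cells, Cdkn1a fell with loss of 1 Trp53 allele by 1.57 on the log2 scale (SE 0.250, adjusted p = 0.00973), or 66.3% below the Trp53+/+ level. This comparison shares the 2 Ddx41+/- Trp53+/+ mice with the Ddx41 comparison above, so the results are not independent. Among Ddx41+/+ cells the log2 fold change was -0.50 (SE 0.210, adjusted p = 0.437), with the 3 Trp53+/- mice below the 3 Trp53+/+ mice. Pooled over both Ddx41 genotypes it was -0.95 (SE 0.204) and missed the threshold at an adjusted p of 0.051. The call between the Ddx41 genotypes was lost without mouse 32 (adjusted p = 0.167), 34 (0.145) or 11 (0.0574), and the call between the Trp53 genotypes in Ddx41+/- cells without mouse 32 (0.162), 34 (0.0744), 46 (0.0781) or 47 (0.235). The values without those mice remained between 1.15 and 1.24 for the first and between -1.69 and -1.45 for the second. Cdkn1a rested on 44 to 273 reads per library, and mouse 34 had the shallowest library of all. A gene on the opposite strand covers 7.68% of its exon bases.

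Ccng1, which encodes cyclin G1, a feedback regulator that acts with a phosphatase on MDM2, followed the Trp53 genotype. It was at 28.7, 25.5 and 25.2 CPM in Ddx41+/+ Trp53+/+ mice and at 27.3 and 31.9 CPM in Ddx41+/- Trp53+/+ mice. It was at 17.9, 14.6 and 20.0 CPM in Ddx41+/+ Trp53+/- mice and at 22.8 and 18.3 CPM in Ddx41+/- Trp53+/- mice. The 5 Trp53+/- libraries lay below the 5 Trp53+/+ libraries, and the Ddx41 genotypes overlapped within each Trp53 genotype. Ccng1 fell over both Ddx41 genotypes by 0.57 on the log2 scale (SE 0.106, adjusted p = 0.0212), or 32.5% below the Trp53+/+ level. It was -0.60 (SE 0.141, adjusted p = 0.0588) with Ddx41+/+ and -0.52 (SE 0.172, adjusted p = 0.589) with Ddx41+/-, neither of which passed alone. The call over both Ddx41 genotypes was lost without mouse 10 (adjusted p = 0.0698), 23 (0.0704) or 47 (0.0584). The Ddx41 effect on Ccng1 was 0.15 (SE 0.155) with Trp53+/+ and 0.23 (SE 0.157) with Trp53+/-. With single mice left out, these values ran from 0.0474 to 0.26 and from 0.0653 to 0.39.

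**Figure D2:**
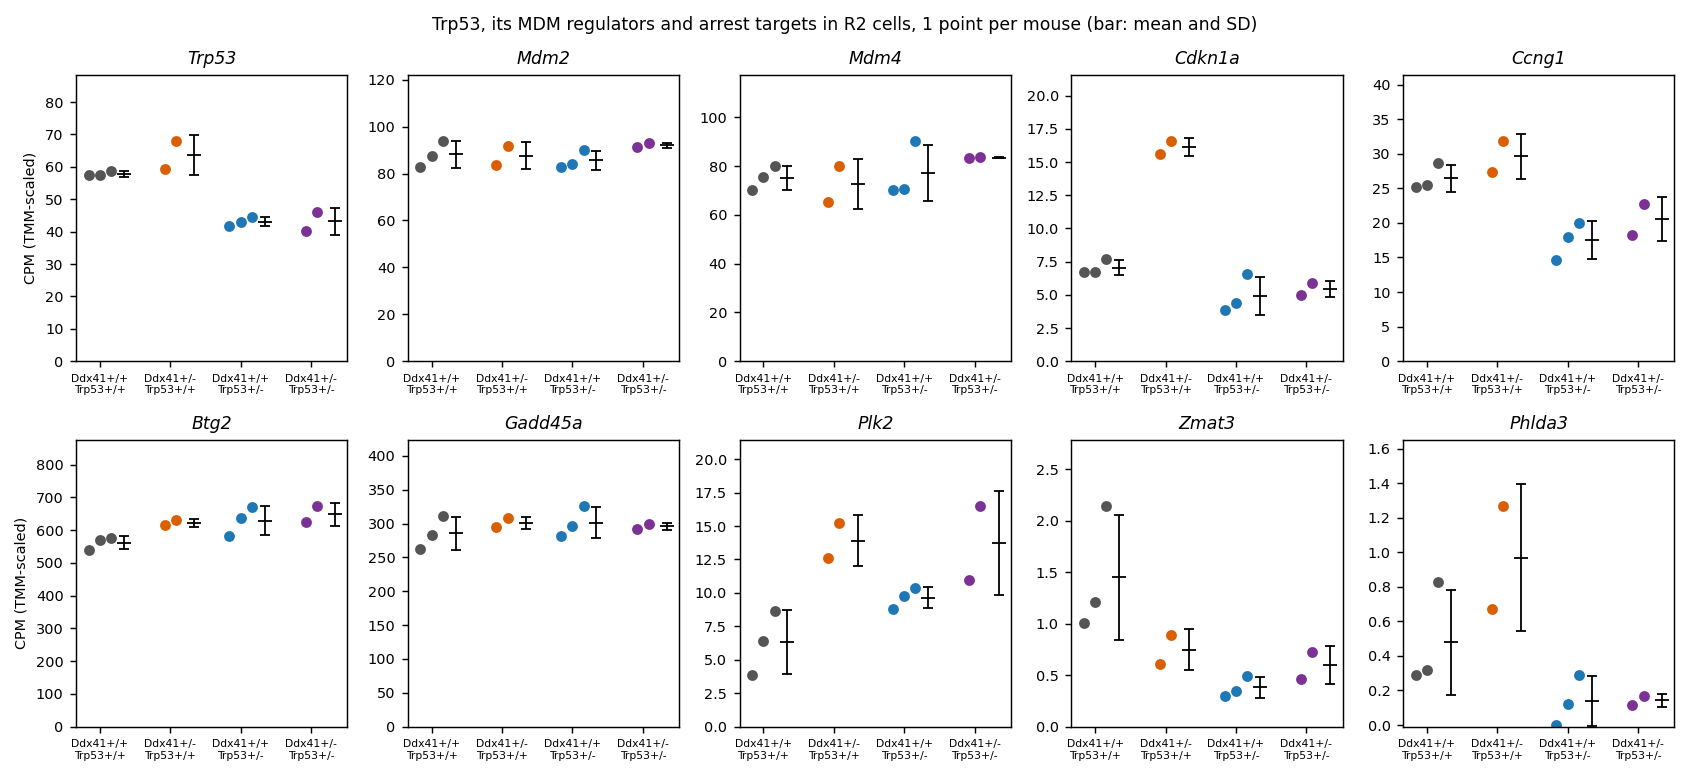
CPM of the 10 genes in each of the 10 mice, by genotype, with 1 point per mouse and a bar at the mean ± SD (n = 3, 2, 3 and 2 from left to right); points are spread sideways only to be seen. Trp53 and Ccng1 are lower in all 5 Trp53+/- mice, Cdkn1a is highest in the 2 Ddx41+/- Trp53+/+ mice (16.6 and 15.6 CPM), and Mdm2, Mdm4 and Gadd45a show no such separation.

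The members with the highest mRNA levels, Btg2 and Gadd45a, were called in no comparison. Btg2 was at 571, 538 and 576 CPM in Ddx41+/+ Trp53+/+ mice and at 615 and 631 CPM in Ddx41+/- Trp53+/+ mice. It was at 581, 670 and 637 CPM in Ddx41+/+ Trp53+/- mice and at 674 and 624 CPM in Ddx41+/- Trp53+/- mice. The lowest values were thus in the Ddx41+/+ Trp53+/+ mice, which overlapped with no other genotype, and the Trp53+/- mice were not below the Trp53+/+ mice as they were for Cdkn1a and Ccng1. With Ddx41+/+, the Trp53 effect on Btg2 was 0.16 (SE 0.0659, adjusted p = 0.401). With Trp53+/+, the Ddx41 effect was 0.15 (SE 0.0736, adjusted p = 0.55).

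Gadd45a was at 283, 263 and 311 CPM in Ddx41+/+ Trp53+/+ mice and at 294 and 307 CPM in Ddx41+/- Trp53+/+ mice. It was at 282, 326 and 296 CPM in Ddx41+/+ Trp53+/- mice and at 292 and 299 CPM in Ddx41+/- Trp53+/- mice. The genotypes overlapped in all 5 comparisons of genotypes, with log2 fold changes from -0.03 to 0.08 and adjusted p of at least 0.804. A noncoding gene on the opposite strand, E230016M11Rik, covers 19.1% of the exon bases of Gadd45a, and without knowing whether strand was used in counting, their reads cannot be told apart there.

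Plk2, a polo-like kinase induced by p53 that acts in the cell cycle, was higher in the Ddx41+/- mice in both Trp53 genotypes without passing the test. It was at 8.65, 3.89 and 6.43 CPM in Ddx41+/+ Trp53+/+ mice and at 12.6 and 15.2 CPM in Ddx41+/- Trp53+/+ mice. It was at 8.80, 9.76 and 10.4 CPM in Ddx41+/+ Trp53+/- mice and at 16.5 and 10.99 CPM in Ddx41+/- Trp53+/- mice. Within each Trp53 genotype the Ddx41+/- mice were above the Ddx41+/+ mice. The log2 fold change was 1.13 (SE 0.269, adjusted p = 0.072) with Trp53+/+ and 0.51 (SE 0.260, adjusted p = 1) with Trp53+/-. Mouse 11 had the lowest level of all 10. The first difference was 1.44 (adjusted p = 0.0222) without mouse 10, the single omission with which it passed the edgeR test, and 0.87 (adjusted p = 0.163) without mouse 11. The second was 0.19 without mouse 46 and 0.78 without mouse 47 (adjusted p 1 and 0.999). Among Ddx41+/- mice the Trp53 genotypes overlapped (log2 fold change -0.01, SE 0.287, adjusted p = 0.998). Plk2 lies on the same chromosome as Ddx41, 54.9 Mb away.

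Zmat3 and Phlda3 rested on few reads. Zmat3, which encodes an RNA-binding zinc finger protein, had 19, 25 and 31 counts in Ddx41+/+ Trp53+/+ mice and 10 and 7 in Ddx41+/- Trp53+/+ mice. It had 3, 8 and 6 counts in Ddx41+/+ Trp53+/- mice and 8 and 13 in Ddx41+/- Trp53+/- mice. In CPM the 3 Ddx41+/+ Trp53+/+ mice were above all others. The log2 fold change between the Trp53 genotypes was -1.87 with Ddx41+/+ (SE 0.557, adjusted p = 0.168) and -0.27 with Ddx41+/- (SE 0.694, adjusted p = 0.99).

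Phlda3, which encodes a repressor of AKT, had 6, 6 and 12 counts in Ddx41+/+ Trp53+/+ mice and 11 and 10 in Ddx41+/- Trp53+/+ mice. It had 0, 2 and 5 counts in Ddx41+/+ Trp53+/- mice and 2 and 3 in Ddx41+/- Trp53+/- mice. In CPM, the 5 Trp53+/- mice were below the 5 Trp53+/+ mice, although narrowly, since the highest of the former was at 0.291 and the lowest of the latter at 0.292. The log2 fold change over both Ddx41 genotypes was -2.01 (SE 0.658, adjusted p = 0.232). A library with 0 counts allows up to 3 counts, or 0.300 CPM in mouse 22, which is above the 0.292 CPM of mouse 11.

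Seen side by side, the 10 genes did not move as one. Over both Ddx41 genotypes, 2 of them (Trp53 and Ccng1) were called lower in Trp53+/- cells and none higher, where 0.439% of all tested genes were called (0.127% lower and 0.312% higher). In the same comparison 3 members (Trp53, Cdkn1a and Ccng1) were lower in every Trp53+/- mouse, as were 0.929% of all tested genes, and no member was higher in every one, as were 1.08%. For Cdkn1a the margin was small (6.55 CPM in mouse 23 against 6.71 in mouse 11). Phlda3 was also lower, but only narrowly (0.291 against 0.292 CPM). Zmat3 and Phlda3 entered the test through libraries in which they were high, and with Ddx41+/+ none of the Trp53+/- libraries exceeded the filter's level for either gene, so they are left out of the counts of lower members between the Trp53 genotypes. Of the 8 members over the filter's level in every library, a limit set after seeing the data, 5 log2 fold changes were above and 3 below 0, with a median of 0.02 beside 0.00 for all tested genes. With Zmat3 and Phlda3 the median was -0.24, a value that rests on these 2 genes. Trp53 is the deleted gene itself and is counted among the 8. At an unadjusted p under 0.05 were 4 of the 8 (Trp53, Cdkn1a and Ccng1 lower, Btg2 higher), beside 11.2% of all genes. With Ddx41+/+, 1 member (Trp53) was called, where 0.988% of genes were called (0.101% lower and 0.886% higher). There 3 members, again Trp53, Cdkn1a and Ccng1, were lower without overlap (6.53% of all genes) and 2, Btg2 and Plk2, higher (7.58%). These 5 of the 8 were at an unadjusted p under 0.05, beside 9.44% of all genes. With Ddx41+/-, 1 member (Cdkn1a) was called lower, where 0.177% of genes were called (0.0591% lower and 0.118% higher). In that comparison Trp53, Cdkn1a and Ccng1 were lower without overlap (18.5% of all genes) and Mdm4 was higher (18.8%). Trp53, Cdkn1a and Ccng1, 3 of the 8, were at an unadjusted p under 0.05, beside 5.41% of all genes.

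Between the Ddx41 genotypes with Trp53+/+, Trp53, Cdkn1a, Btg2 and Plk2 were higher without overlap (12.9% of all genes) and Zmat3 was lower (12.1%). The median log2 fold change was 0.14 with or without Zmat3 and Phlda3, beside 0.00 for all tested genes. Cdkn1a and Plk2 were at an unadjusted p under 0.05, beside 9.64% of all genes. With Trp53+/-, Mdm2 and Plk2 were higher without overlap (9.23% of all genes), no member was called by edgeR or DESeq2, 0.0422% of genes were called by edgeR, and no member reached an unadjusted p under 0.05, as 3.75% of genes did. The median was 0.11 for the members and -0.01 for all tested genes. The comparisons share mice, so likeness between them is not independent evidence.

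**Figure D3:**
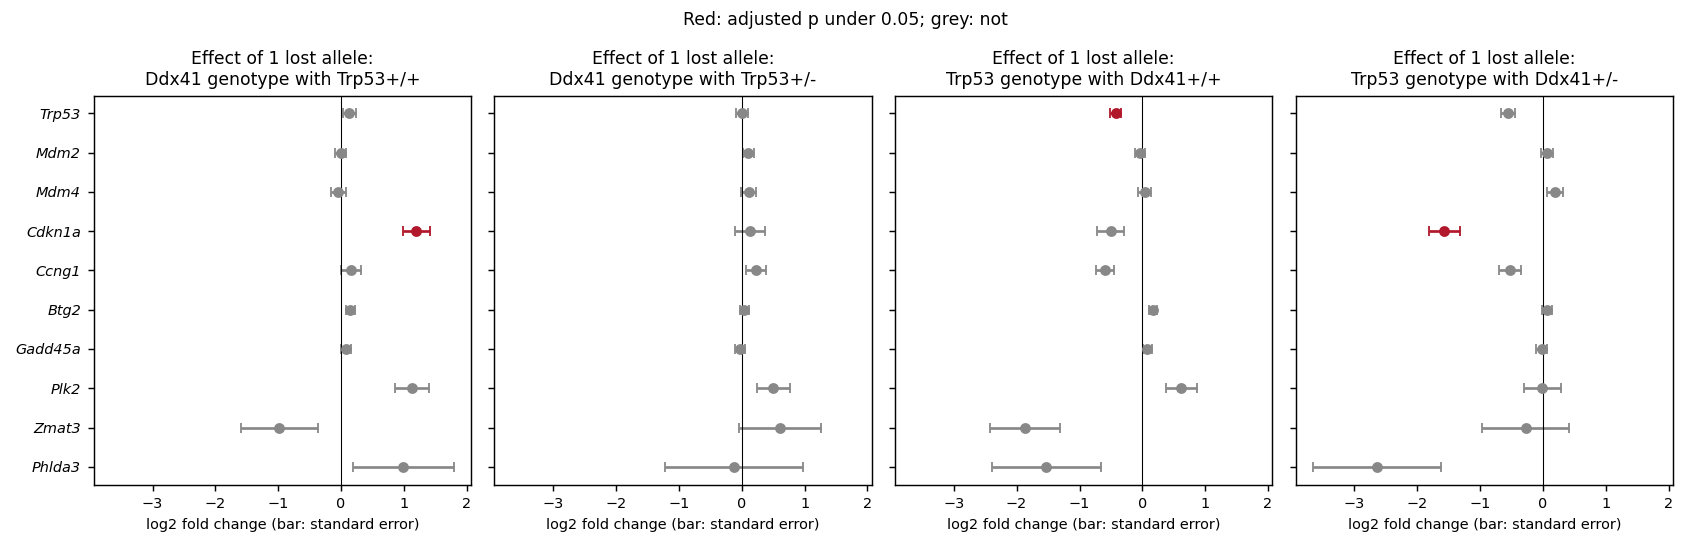
Log2 fold change (horizontal axis) of each of the 10 genes in the 4 comparisons between a pair of genotypes, with a bar of 1 standard error to each side; red points passed the edgeR test at an adjusted p under 0.05 and the line at 0 marks no difference. The red points are Cdkn1a at 1.20 and -1.57 and Trp53 at -0.42, and the widest bars are those of Zmat3 and Phlda3, which had the fewest reads.

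The other arms of the pathway gave no call. Of 13 listed p53 targets in cell death, 11 were tested and none was called in any of the 6 comparisons by edgeR or by DESeq2, run as an alternative. Their median log2 fold change was 0.03 between the Ddx41 genotypes with Trp53+/+ and -0.06 between the Trp53 genotypes over both Ddx41 genotypes. In edgeR 3 of 11 had an unadjusted p under 0.05 in each of these comparisons, beside 9.64% and 11.2% of all tested genes, and 0 to 2 in the other 4. The most abundant of the list, Apaf1, a core protein of the apoptosome, was at 70.0 to 88.6 CPM over the 10 libraries. The death effectors Bax, Bbc3 (PUMA) and Pmaip1 (NOXA) were named after their values were seen. Bax was at 28.3, 27.7 and 25.5 CPM in Ddx41+/+ Trp53+/+, 30.9 and 39.1 in Ddx41+/- Trp53+/+, 26.1, 24.5 and 22.9 in Ddx41+/+ Trp53+/- and 28.1 and 26.4 in Ddx41+/- Trp53+/- mice. Bbc3 was at 22.7, 33.9 and 24.6 CPM in Ddx41+/+ Trp53+/+, 35.5 and 47.6 in Ddx41+/- Trp53+/+, 28.4, 52.5 and 29.2 in Ddx41+/+ Trp53+/- and 46.01 and 56.97 in Ddx41+/- Trp53+/- mice. Pmaip1 was at 5.48, 4.37 and 3.25 CPM in Ddx41+/+ Trp53+/+, 7.30 and 6.22 in Ddx41+/- Trp53+/+, 4.50, 6.12 and 5.996 in Ddx41+/+ Trp53+/- and 9.41 and 6.79 in Ddx41+/- Trp53+/- mice. The means of Bbc3 and Pmaip1 were highest in the Ddx41+/- Trp53+/- mice and that of Bax in the Ddx41+/- Trp53+/+ mice, with none of these differences called.

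Of 13 targets in DNA repair and metabolism, all were tested and none was called in any comparison by edgeR or DESeq2. The medians were -0.03 between the Ddx41 genotypes with Trp53+/+ and -0.02 between the Trp53 genotypes over both Ddx41 genotypes. At an unadjusted p under 0.05 there were 3 and 1 of 13 in these comparisons, beside 9.64% and 11.2% of all tested genes. In the others there were 0 or 1. Sesn1, a sestrin that restrains growth signalling, was the most abundant, at 129 to 173 CPM. Eda2r, a receptor named after its values were seen, had 0, 5 and 0 counts in Ddx41+/+ Trp53+/+ mice and 16 and 5 counts in Ddx41+/- Trp53+/+ mice. It had no read in any of the 5 Trp53+/- mice. It exceeded the filter's level only in the 2 Ddx41+/- Trp53+/+ mice, so it was tested only through the genotype in which it was high, and 16 of its 26 reads were in mouse 32. It did not pass the edgeR test, and nothing is read from its fold changes.

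Of 19 listed regulators of p53 (among them kinases, ligases, a deubiquitinase, acetyltransferases and ribosomal proteins that bind MDM2), 18 were tested and none was called by edgeR or DESeq2. Their log2 fold changes ran from -0.32 to 0.22 between the Ddx41 genotypes with Trp53+/+ and from -0.18 to 0.14 between the Trp53 genotypes over both Ddx41 genotypes. At an unadjusted p under 0.05 there were 2 and 1 of 18 in these comparisons, beside 9.64% and 11.2% of all tested genes. In the others there were 0 or 1. Usp7, a deubiquitinase of MDM2 and p53, was the most abundant, at 1187 to 1349 CPM.

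Of 16 paralogs of the members, 13 were tested and 1, Ccng2, was called by edgeR, between the Trp53 genotypes with Ddx41+/+. DESeq2 called Ccng2 and Btg1, a paralog of Btg2 named after its values were seen, with edgeR log2 fold changes of 0.44 (SE 0.106, adjusted p = 0.0675) and 0.32 (SE 0.0872, adjusted p = 0.131), both there and over both Ddx41 genotypes. Ccng2, the paralog of Ccng1 that encodes cyclin G2, was at 31.3, 31.2 and 23.04 CPM in Ddx41+/+ Trp53+/+ mice and at 40.3, 45.1 and 43.8 CPM in Ddx41+/+ Trp53+/- mice. It thus rose with Ddx41+/+ where Ccng1 was lower, by 0.59 on the log2 scale (SE 0.124, adjusted p = 0.0293). With Ddx41+/- it was at 30.7 and 36.7 CPM with Trp53+/+ and at 39.6 and 35.9 CPM with Trp53+/-, which overlapped (log2 fold change 0.17, SE 0.154, adjusted p = 0.965). Between the Trp53 genotypes, 4 of the 13 paralogs were at an unadjusted p under 0.05 with Ddx41+/+, beside 9.44% of all tested genes. Over both Ddx41 genotypes 4 were as well, beside 11.2%, and 0 or 1 in the other comparisons. Plk1 was the most abundant paralog, at 266 to 301 CPM. Of 14 cell cycle cyclins, kinases and partners, most of them of the G1/S transition but also Cdk1 and Ccnb1 of mitosis, none was called in any comparison by edgeR or DESeq2, and their median was -0.08 between the Ddx41 genotypes with Trp53+/+. At an unadjusted p under 0.05 there was 1 of 14, beside 9.64% of all tested genes, and 0 to 2 in the other comparisons. Ccna2, which encodes cyclin A2, was the most abundant at 1060 to 1265 CPM.

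**Figure D4:**
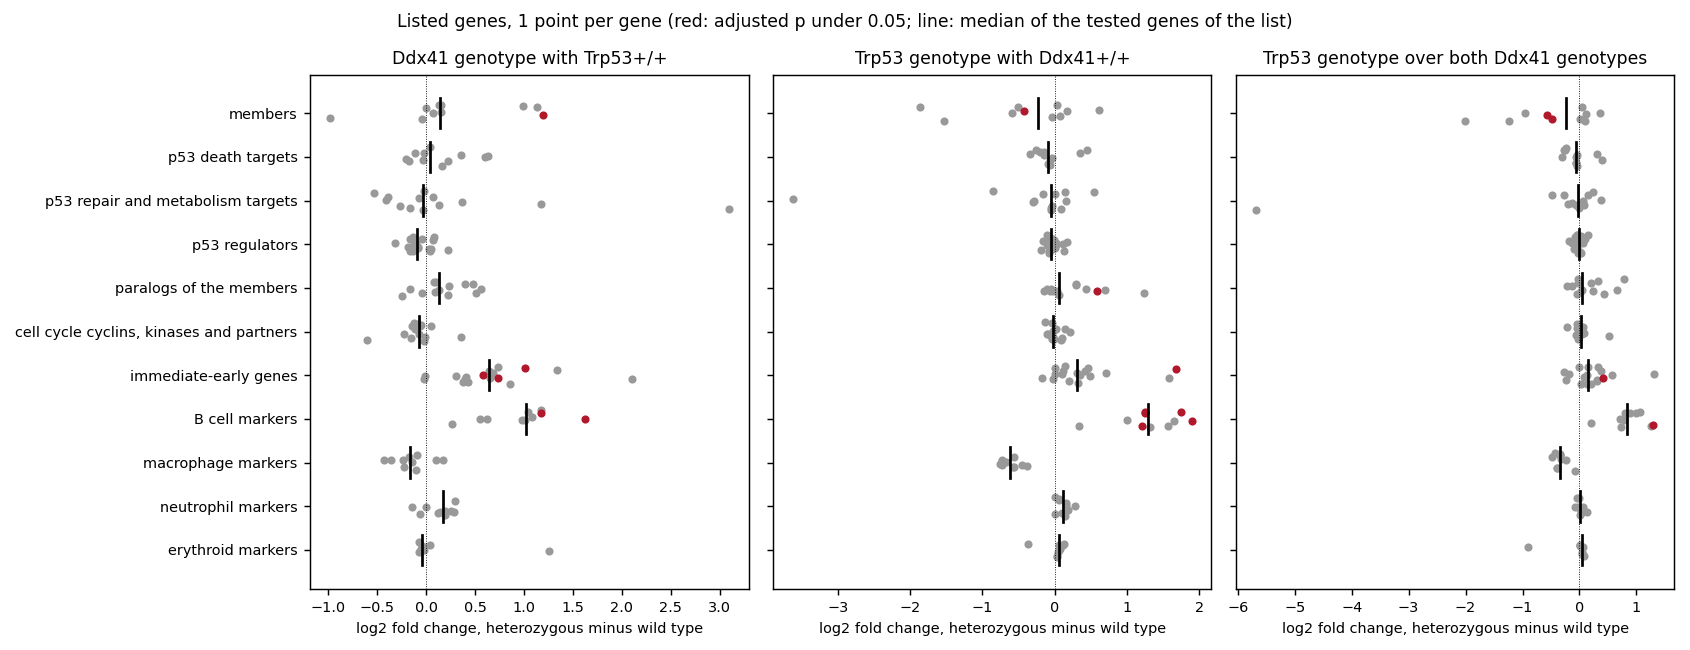
Log2 fold changes (horizontal axis) of the members, the other arms of the pathway and the marker lists in 3 comparisons, with 1 point per tested gene, called genes in red and a line at each list's median. The medians of the death targets, repair and metabolism targets, regulators and cell cycle genes lie near 0, while those of the immediate-early genes (0.64) and B cell markers (1.02) lie higher in the left panel; the far left point is the fitted value of Eda2r, which has no read in the 5 Trp53+/- mice and is no bound. The line of the members includes Zmat3 and Phlda3.

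The sorted cells carried erythroid mRNA at a high level in every library. Of 10 erythroid markers, 9 were detected, with a summed level of 43474 to 49362 CPM, most of it Slc4a1 (25470 to 30511 CPM), which encodes the anion exchanger band 3. The globin gene Hbb-bt was at 0 counts in every library, and counts of globin genes that share sequence with near-identical copies are uncertain. No erythroid, neutrophil or megakaryocyte marker was called in any comparison by edgeR or DESeq2, and none had an unadjusted p under 0.05 in edgeR. The 10 neutrophil markers summed to 4949 to 8484 CPM, led by S100a9, and the 7 megakaryocyte markers (4 tested) to 83.9 to 105 CPM, led by Vwf. All 10 neutrophil markers were below 0 between the Trp53 genotypes with Ddx41+/- (median log2 fold change -0.15) and in the interaction (-0.25). With Ddx41+/+ 9 were above and 1 below 0 between the Trp53 genotypes (median 0.12). The part of neutrophils in the Cdkn1a differences was not tested. In bulk RNA, fewer cells of a type and less RNA per cell cannot be told apart, and this holds for the members as well.

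Of the 2 comparisons in which Cdkn1a was called, edgeR called B cell markers and immediate-early genes in 1, the Ddx41 genotypes with Trp53+/+. In the other, between the Trp53 genotypes with Ddx41+/-, edgeR called none of them, DESeq2 called 1 immediate-early gene, and the median log2 fold changes were 0.15 for the B cell markers and 0.01 for the immediate-early genes. Of 10 B cell markers, all were above 0 between the Ddx41 genotypes with Trp53+/+ (median log2 fold change 1.02), and Cd79a (1.17, SE 0.237, adjusted p = 0.0312) and Ebf1 (1.62, SE 0.319, adjusted p = 0.025) rose. In that comparison edgeR called 0.625% of all tested genes. At an unadjusted p under 0.05 in edgeR were 8 of the 10 markers, beside 9.64% of all tested genes. DESeq2 called 5 of the 10 there, and 8 between the Trp53 genotypes with Ddx41+/+. With Ddx41+/+ edgeR called 5 of them, beside 0.988% of all tested genes, and 9 of the 10 were at an unadjusted p under 0.05, beside 9.44%. The summed level of the B cell markers was 345, 206 and 224 CPM in Ddx41+/+ Trp53+/+ mice and 344 and 489 CPM in Ddx41+/- Trp53+/+ mice. It was 365, 404 and 441 CPM in Ddx41+/+ Trp53+/- mice and 455 and 398 CPM in Ddx41+/- Trp53+/- mice. Cd74 was the most abundant, and no marker of the list was at 0 in any library. The sums of the 5 Trp53+/- mice lay between those of the 2 Ddx41+/- Trp53+/+ mice. Between the Trp53 genotypes with Ddx41+/+, the median of these markers was 1.29, and Cd79a, Ms4a1, Ebf1 and Vpreb3 were among those that rose (log2 fold changes 1.24 to 1.89, adjusted p 0.00223 to 0.0347). Over both Ddx41 genotypes, where Trp53 and Ccng1 were called, all 10 were above 0 (median 0.84), with Ebf1 (1.29, SE 0.273, adjusted p = 0.0488) called by edgeR and 2 by DESeq2. At an unadjusted p under 0.05 in edgeR were 9 of the 10, beside 11.2% of all tested genes. In the interaction all 10 were below 0 (median -1.12), with none called by edgeR and 1 by DESeq2 (Vpreb3). There 6 of 10 were at an unadjusted p under 0.05 in edgeR, as were 593 of the 11846 tested genes.

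Of 17 immediate-early genes, 15 were above 0 between the Ddx41 genotypes with Trp53+/+ (median 0.64), and edgeR called 3 and DESeq2 5 of them. Of all tested genes edgeR called 0.625%. At an unadjusted p under 0.05 in edgeR were 13 of the 17, beside 9.64% of all tested genes. Fosb (1.01, SE 0.165, adjusted p = 0.00673), Junb (0.58, SE 0.108, adjusted p = 0.0153) and Klf6 (0.73, SE 0.159, adjusted p = 0.0493) rose. The summed level of the list was 1920, 1902 and 2369 CPM in Ddx41+/+ Trp53+/+ mice and 2824 and 2978 CPM in Ddx41+/- Trp53+/+ mice. It was 2174, 2253 and 2944 CPM in Ddx41+/+ Trp53+/- mice and 2878 and 2656 CPM in Ddx41+/- Trp53+/- mice, with Jund the most abundant gene. In the same order of mice, Cdkn1a was at 6.75, 6.71 and 7.68 CPM and at 16.6 and 15.6 CPM with Trp53+/+. With Trp53+/- it was at 4.40, 6.55 and 3.84 CPM and at 5.87 and 4.99 CPM. Egr3 also rose between the Trp53 genotypes with Ddx41+/+ (1.68, SE 0.373, adjusted p = 0.0395), as did Ier2 over both Ddx41 genotypes (0.42, SE 0.0694, adjusted p = 0.00866). With Ddx41+/+, 15 of the 17 were above 0 between the Trp53 genotypes (median 0.31), and DESeq2 called 4. There 8 of 17 were at an unadjusted p under 0.05 in edgeR, beside 9.44% of all tested genes. In the interaction 14 of the 17 were below 0 (median -0.30), with none called and 4 at an unadjusted p under 0.05 in edgeR. The part of these genes or of B cells in the Cdkn1a differences was not tested.

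The 10 macrophage markers were all below 0 between the Trp53 genotypes with Ddx41+/+ (median -0.62), with none called by edgeR, 1 by DESeq2 (Siglec1, named after its values were seen) and 9 of 10 at an unadjusted p under 0.05, beside 9.44% of all tested genes. Their summed level was 610, 325 and 537 CPM in Ddx41+/+ Trp53+/+ mice and 361, 320 and 262 CPM in Ddx41+/+ Trp53+/- mice, led by Csf1r. It was 390 and 497 CPM in Ddx41+/- Trp53+/+ mice and 525 and 407 CPM in Ddx41+/- Trp53+/- mice. With Ddx41+/- the median of these markers between the Trp53 genotypes was 0.05. Between the Ddx41 genotypes with Trp53+/-, where Mdm2 and Plk2 did not overlap, all 10 were above 0 (median 0.53), with none called by edgeR or DESeq2 and 6 of 10 at an unadjusted p under 0.05, beside 3.75% of all genes. The part of macrophages in the Mdm2 and Plk2 values was not tested. In the comparison over both Ddx41 genotypes all 10 were below 0 (median -0.34), with none called. There 4 of 10 were at an unadjusted p under 0.05, beside 11.2% of all genes. The part of macrophages or B cells in the lower Trp53 and Ccng1 levels of the Trp53+/- mice was not tested.

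The genes most like Trp53 in their pattern, by Pearson's r of log2 CPM over the 10 libraries among 11845 other tested genes, were Sgta (0.937), Spon2 (0.928), Coa5 (0.919), Gm608 (0.915) and Cdk7 (0.908). Those most like Cdkn1a were Dlg5 (0.957), Mri1 (0.935), Crip1 (0.925), Lsm12 (0.922) and Nupr1 (0.901). Some of them rested on few reads, with 4 to 21 counts per library for Dlg5, 9 to 44 for Nupr1 and 12 to 55 for Spon2. None of these 10 genes was called in any comparison, and none is in the lists used here. The libraries share genotype groups and scaling, so these values describe the 10 libraries only.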

How the data were processed

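The deposited values are whole-number read counts for each gene symbol in 10 libraries, which the authors had not normalized. The submitters' processing notes name FastQC 0.11.7, HISAT2 2.0.5, featureCounts 1.5.2 and mm10, with no settings. The sample labels name a stranded mRNA kit and the study's methods another kit. Libraries held 7866648 to 20283930 counts on 24421 genes. The floor for values of 0 covers counting error only, and reads without molecular identifiers are not independent molecules. The standard errors come from the fit over the mice and the SDs from the mice, so both include variation between mice. The number of mice (2 or 3 a genotype) limits the precision. Mice 35 and 45 are named as removed from the deposited counts, which held no column of another sample, so they were not analysed here. The labels used here do not give their genotypes. The Ddx41+/- mice that remained were 32 and 34 with Trp53+/+ and 46 and 47 with Trp53+/-.

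The counts were fitted with edgeR 4.0.16 under R 4.3.3. Low genes were dropped by filterByExpr on genotype (12575 of 24421 removed, 11846 tested), libraries scaled by TMM, and all 10 libraries entered 1 quasi-likelihood fit, with a mean for each genotype or with additive Ddx41 and Trp53 terms for the comparison over both Ddx41 genotypes. The two-sided p-values were adjusted over all tested genes with the Benjamini-Hochberg procedure. Genes under an adjusted p of 0.05 were called. The standard error was the absolute log2 fold change divided by the square root of F. Log2 CPM used a prior count of 2, and a floor of 3 counts was used for values of 0. For RNA-seq the study's methods name iGeak and AltAnalyze with no model for counts. Genes were named by a rule: all members and Ddx41, called genes of each list (at most 5 a comparison), the most abundant gene of each list, and the 5 genes most like Trp53 and Cdkn1a. For 1 called gene of the B cell list, the result is not reported here. The members, lists and tests were chosen with earlier results of these data known. In the lists, Cop1 was read as Rfwd2. Alternatives were DESeq2 1.42.0, DESeq2 size factors in edgeR, no filter on low counts, at least 10 counts in every library, a fold change over 1.5, only the 2 genotypes compared, and each mouse left out in turn. The fits were tested on simulated data. Positions are GENCODE M21 on GRCm38 and promoters RefSeq on GRCm38.p6. Figures were drawn in Python 3.11.15 with matplotlib 3.10.9.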

Additional observations from a re-analysis of the deposited data

How the results depend on the processing

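Over up to 16 alternatives the 5 called values of members kept their direction. Trp53 over both Ddx41 genotypes stayed called except where a fold change over 1.5 was required, which its log2 value of -0.48 cannot reach; that limit also removed Trp53 with Ddx41+/+ (-0.42) and Ccng1 over both Ddx41 genotypes (-0.57). With only the 2 genotypes compared, Trp53 with Ddx41+/+ was lost (adjusted p = 0.0511). Calls gained were Plk2 between the Ddx41 genotypes with Trp53+/+ and Cdkn1a over both Ddx41 genotypes, each with DESeq2 (adjusted p 0.00774 and 0.00176) and with no filter (3.81e-05 and 6.88e-06). The same settings called Ddx41 in both Ddx41 comparisons (DESeq2 adjusted p 0.0232 and 0.00781), Ccng1 with Ddx41+/+ (0.0104) and Trp53 with Ddx41+/- (0.00525). Cdkn1a over both Ddx41 genotypes was also called without mouse 11 (adjusted p = 0.0476) or 23 (0.00844). The causes were not tested.

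The number of genes called was 74 between the Ddx41 genotypes with Trp53+/+, 5 with Trp53+/-, 117 between the Trp53 genotypes with Ddx41+/+, 21 with Ddx41+/-, 52 over both Ddx41 genotypes and 8 in the interaction. DESeq2 called 169 for the first and 209, 50, 177 and 29 for the last 4, in that order. With no filter on low counts the numbers were 333, 62, 366, 97, 361 and 107. At least 10 counts in every library left 2 between the Ddx41 genotypes with Trp53+/-, and a fold change over 1.5 left 34 over both Ddx41 genotypes. With only the 2 genotypes compared, 70 and 47 were called between the Trp53 genotypes with Ddx41+/+ and with Ddx41+/-. Leaving out single mice, the numbers ran from 13 to 110, 1 to 10, 35 to 126, 13 to 25, 30 to 109 and 8 to 12 in the order above. Leaving out a mouse can leave a genotype with 1 library, which is then assumed to vary like the others.

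Values near 0 changed sign when a mouse was left out. Between the Ddx41 genotypes with Trp53+/+ the ranges were -0.0791 to 0.0575 for Mdm2 and -0.21 to 0.0879 for Mdm4. Mdm2 was also at 0.0026 with at least 10 counts in every library. With Trp53+/- the ranges were -0.087 to 0.10 for Trp53, -0.034 to 0.41 for Cdkn1a, -0.0103 to 0.11 for Btg2, -0.0726 to 0.0329 for Gadd45a and -0.53 to 0.87 for Phlda3. Between the Trp53 genotypes with Ddx41+/+ they were -0.0853 to 0.0058 for Mdm2, -0.0949 to 0.10 for Mdm4 and -0.0093 to 0.12 for Ddx41. With Ddx41+/- they were -0.0461 to 0.0089 for Gadd45a, -0.33 to 0.26 for Plk2, -0.63 to 0.0012 for Zmat3 and -0.26 to 0.0558 for Ddx41. Over both Ddx41 genotypes they were -0.0299 to 0.0335 for Mdm2, -9e-04 to 0.0678 for Gadd45a and -0.0459 to 0.0546 for Ddx41. In the interaction they were -0.0899 to 0.24 for Ccng1 and -0.31 to 0.0017 for Ddx41. None of these values was called.

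No paired analysis was possible because the genotypes share no replicate numbers in the labels. The labels give no batch. Depth limits Zmat3 (3 to 31 counts per library) and Phlda3 (0 to 12), and at least 10 counts in every library removed both from the test.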
